A study of Mus musculus with 2 samples.

Results

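The proteasome subunit genes described here were the protein-coding genes whose symbol is Psma, Psmb, Psmc or Psmd followed by a number. The immunoproteasome genes Psmb8, Psmb9 and Psmb10, the recombination factor Psmc3ip and pseudogenes were left out. This gave 36 genes of 39017 in the count table: 16 of the core particle and 20 with a regulatory particle symbol. Of these, 35 had at least 20 counts summed over both libraries and are called measured. Psmb11, a subunit of the thymus-specific proteasome, had 0 counts in wild-type (WT) and 1 in miR-146a-/- and entered no summary.

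The proteasome is the large protease that degrades proteins tagged with ubiquitin. Its core particle is a barrel of stacked rings, with outer alpha rings that gate the channel and inner beta rings that hold the proteolytic sites. The regulatory particle caps the barrel: a base with a ring of ATPases unfolds the substrate and threads it in, and a lid removes the ubiquitin chain. In haematopoietic stem and progenitor cells, as in others, the proteasome sets the levels of short-lived regulators of cell cycle and signalling, among them the inhibitor that holds NF-kB in the cytoplasm.

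RNA came from Lin- Sca-1+ c-Kit+ (LSK) bone marrow cells, which include haematopoietic stem cells and multipotent progenitors. The mice were C57BL/6J, 10 to 14 weeks old, and either WT or miR-146a-/-, that is, lacking a microRNA that restrains NF-kB signalling. The WT library was 1 pool of 12 mice and the miR-146a-/- library 1 pool of 6 mice, both from the same flow cell and lane. With 1 library per genotype no test was possible and no p-value is given; each difference below compares these libraries, without a replicate check. Intervals in brackets are exact 95% counting intervals, which cover counting error only.

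The deleted gene itself, Mir146, had 0 counts in both libraries, so these counts do not check the genotype labels. Depth was 35069136 counts in WT and 22231389 in miR-146a-/-. One feature with ribosomal RNA sequence, Gm42418, took 2.13% and 27.2% of them, so counts were scaled by TMM, which compares the bulk of genes rather than the totals. All 8 markers of LSK cells were detected, with Kit at 558 and 728 CPM (counts scaled to a common effective library size, on which 1 count was 0.0215 CPM in WT and 0.0598 in miR-146a-/-) and Ly6a, which encodes Sca-1, at 66.8 and 74.7. Of markers of other cells, the T cell genes Cd3d, Cd3e, Cd3g and Cd8a and the erythroid gene Alas2 were at 0 in both libraries. The 5 measured of 8 neutrophil markers summed to 12.1 CPM in WT and 4.85 in miR-146a-/-. For the 4 measured of 6 monocyte and macrophage markers the sums were 22.6 and 33.3 CPM. The 4 measured of 7 B and plasma cell markers summed to 52.8 and 54.7, the 2 of 7 T and NK cell markers to 36.2 and 35.8, and the 3 of 5 erythroid markers to 2.40 and 2.33. Of the 5 measured neutrophil markers 3 were called lower: Ltf (121 and 6 counts, log2 ratio -2.80), Ngp (211 and 29, -1.38) and S100a9 (152 and 23, -1.24). Camp (-1.70) and S100a8 (0.30) were not called. In the B and plasma cell list Jchain was called lower (271 and 38 counts, -1.35). In the T and NK cell list Cd4 was called higher (86 and 68 counts, 1.13). Sdc1, Cd79b and Nkg7 made up most of the sums of these 2 lists. The female-specific Xist was at 236 and 2938 CPM and 4 of 4 Y-linked genes were called lower in miR-146a-/-, and the labels used here name no sex. The part of these differences in the values below was not tested.

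Transcripts of the proteasome subunit genes were modestly less abundant in the miR-146a-/- library, in both particles and by a similar amount. Summed over all measured members they came to 1722 CPM in the WT library and 1334 in the other, which is a log2 ratio of -0.37 (-0.39 to -0.35). As a share of the counts of protein-coding genes they held 0.281% and 0.195%. The median log2 ratio of the 35 members was -0.37, or 1.30-fold lower, where the median over all 13880 measured genes was -0.01. In bulk RNA, fewer cells with high levels and less RNA per cell cannot be told apart.

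The shift was spread over nearly every member, with log2 ratios from -0.73 to 0.46. Counting intervals lay wholly below 0 for 32 of 35 members, against 29.1% of all measured genes. That background takes in genes with few counts, whose intervals are wide, and genes of all lengths. Among protein-coding genes with 200 counts or more, 508 of 944 within the interquartile range of core lengths lay wholly below 0. So did 852 of 1936 within that of regulatory lengths. The members below 0 were 13 of 15 core and 19 of 20 regulatory genes. Intervals lay wholly above 0 for 1 member, Psmb2, against 28.0% of all measured genes, and held 0 for Psma8 and Psmd9. In the same core and regulatory length ranges, 147 of 944 and 412 of 1936 genes lay wholly above 0. A gene was called higher or lower only when its whole interval lay beyond 1.5-fold: 0 of 35 members were higher, against 5.35% of all measured genes, and 0 were lower, against 1.53%. This count of lower members depends on the scaling: it was 4 when TMM was computed with no filter, 9 by totals of protein-coding genes and 34 by total counts. The same settings called 322 of 20304, 574 of 13880 and 7077 of 13880 genes lower. For 7 members the point estimate itself lay beyond 1.5-fold lower, against 7.99% of genes. These were 4 of 15 core and 3 of 20 regulatory members. In the core and regulatory length ranges above, 154 of 944 and 155 of 1936 genes did so. The SD of the members' log2 ratios was 0.25, and 0.43 over the 10365 protein-coding genes that had 200 counts or more. Among those within the core and regulatory length ranges it was 0.50 and 0.45. These genes were not matched to the members in depth, so the part of counting error in this difference was not tested.

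**Figure D1:**
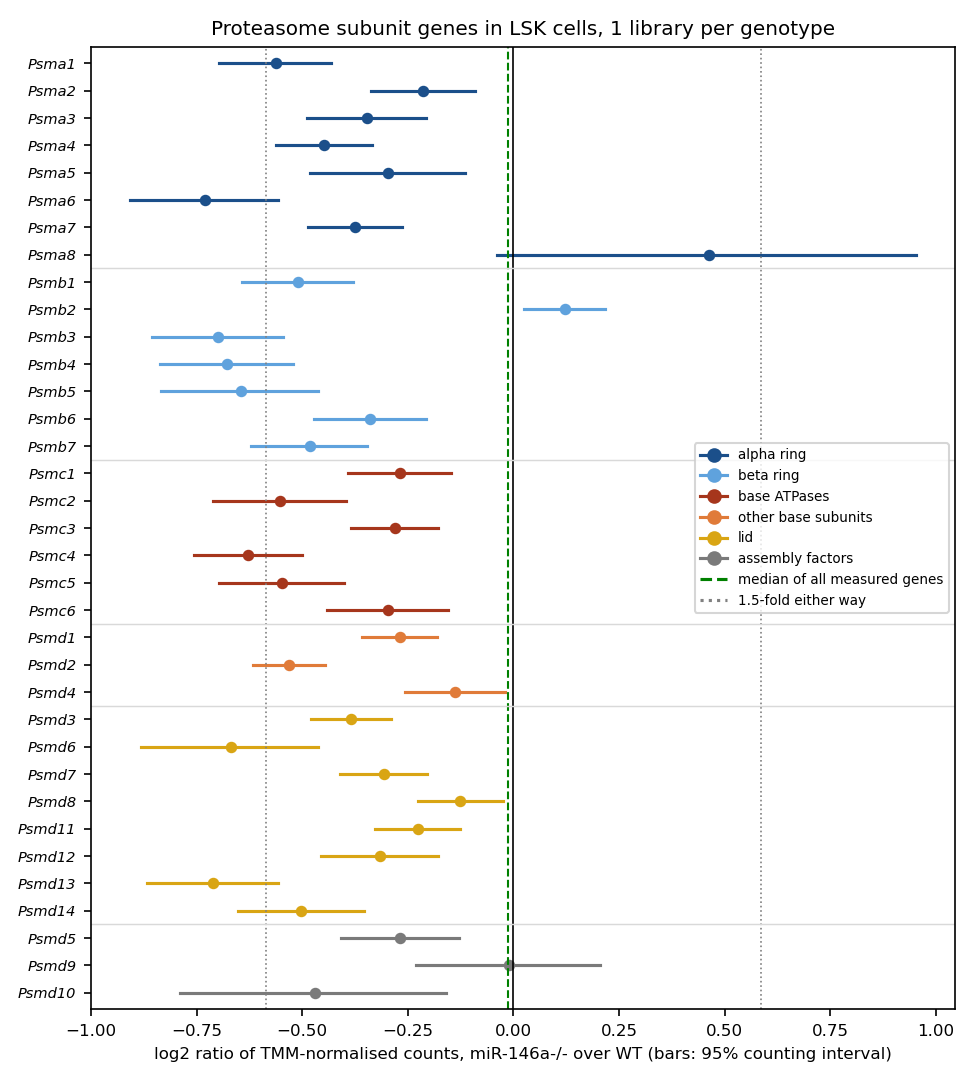
Log2 ratio of TMM-normalised counts (miR-146a-/- over WT, x axis) for the 35 measured members (y axis), coloured by role; points are ratios, bars 95% counting intervals, the dashed line the median of all measured genes and the dotted lines 1.5-fold. Of the 35 points 33 lie left of 0, and no bar lies wholly beyond 1.5-fold.

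Core and regulatory particle had similar ratios by their summed counts. The 15 measured core genes summed to 645 CPM in WT against 493, giving a log2 ratio of -0.39 (-0.42 to -0.35). For the 20 regulatory genes the sums were 1077 and 841 CPM, a ratio of -0.36 (-0.38 to -0.33). Core genes made 37.5% of all proteasome counts in WT (37.1 to 37.8%) and 36.9% in miR-146a-/- (36.3 to 37.6%), a comparison within each library that no scaling affects. These intervals overlap. By medians the core stood lower, at -0.45 against -0.31, but the means were -0.38 and -0.37: the core held both the lowest member and the 2 positive ones, and its SD was 0.32 against 0.19 for the regulatory genes.

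In the alpha ring, 7 of 8 genes had intervals below 0, with a median of -0.36 over the ring. Psma6 was the lowest of all 35 members, with 32.3 CPM in the WT library and 19.5 in the other and a ratio of -0.73 (-0.91 to -0.56). It lies on chromosome 12 from 55384222 to 55418454 (mm10, plus strand). Psma1 followed, with 50.9 and 34.5 CPM and a ratio of -0.56. Psma4 (65.2 and 47.8 CPM), Psma7 (64.8 and 50.02), Psma3 (40.6 and 31.9) and Psma5 (23.1 and 18.8) lay between -0.45 and -0.30. Psma2 was the least shifted of the ubiquitous alpha genes, with 49.7 and 42.9 CPM and a ratio of -0.21 (-0.34 to -0.09). Psma8, which replaces Psma7 in the proteasome of male germ cells, was nearly silent by comparison: 107 counts in WT and 53 in miR-146a-/-, or 2.30 and 3.17 CPM. Its ratio of 0.46 had the widest interval of the measured members (-0.04 to 0.95) and no direction is given for it.

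In the beta ring, 6 of the 7 measured genes had intervals below 0 and 1 had an interval above it; the median was -0.51. The 3 proteolytic subunits were all lower in miR-146a-/-. Psmb5, which cuts after hydrophobic residues and is the main target of bortezomib, had 27.4 CPM against 17.5, a ratio of -0.65 (-0.83 to -0.46). Psmb7, which cuts after basic residues, had 46.1 and 33.0 CPM (-0.48, -0.62 to -0.35). Psmb6, which cuts after acidic residues, had 45.2 and 35.7 CPM (-0.34, -0.47 to -0.21). Among the structural beta subunits, Psmb3 (40.3 and 24.8 CPM) was at -0.70, Psmb4 (38.9 and 24.3) at -0.68 and Psmb1 (51.0 and 35.8) at -0.51. Psmb2 alone went the other way, at 67.0 CPM in WT against 72.9 and a ratio of 0.12 (0.03 to 0.22). The gene lies on chromosome 4 from 126677630 to 126709714, and its interval did not meet that of any other ubiquitous core gene. Its positive sign did not hold by totals of protein-coding genes, where it was at -0.04, or by total counts, where it was at -0.70.

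All 6 ATPases of the base, which unfold the substrate, had intervals below 0, with a median of -0.42. Psmc4 (57.1 CPM in WT and 36.9 in miR-146a-/-) was the lowest, at -0.63 (-0.76 to -0.50). Psmc2 (36.0 and 24.5 CPM) and Psmc5 (40.7 and 27.9) were each at -0.55. Psmc6 (38.1 and 31.0) was at -0.30, Psmc3 (72.2 and 59.4) at -0.28 and Psmc1 (50.7 and 42.1) at -0.27 (-0.39 to -0.15). The interval of Psmc4 did not meet those of Psmc1, Psmc3 and Psmc6.

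The 3 other base subunits had a median of -0.27, and all had intervals below 0. Psmd2, a scaffold on which shuttle factors dock, had 121 CPM in WT and 83.8 in miR-146a-/-, a ratio of -0.53 (-0.62 to -0.45). Psmd1, the second large scaffold, had 97.3 and 80.7 CPM (-0.27). Psmd4, a receptor that binds ubiquitin chains, had 50.4 and 45.8 CPM (-0.14, -0.26 to -0.02). The interval of Psmd2 met neither of these.

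In the lid, 8 of 8 genes had intervals below 0, over a range from -0.71 to -0.13 and with a median of -0.35. Psmd13 was the lowest, with 41.0 CPM against 25.01 (-0.71, -0.87 to -0.56). Its gene lies on chromosome 7 from 140881968 to 140898643, and 10.1% of its exon bases are shared with Sirt3 on the opposite strand, so its count is uncertain without known strand use. The same holds for Psmb7, which shares 11.8% with Nek6, and Psmc3, which shares 8.25% with Slc39a13. Psmd6 had 21.98 and 13.8 CPM (-0.67, -0.88 to -0.46). Psmd14, the enzyme that removes the ubiquitin chain as the substrate is engaged, had 39.1 and 27.6 CPM (-0.50, -0.65 to -0.35). Its structural partner Psmd7 had 73.4 and 59.3 CPM (-0.31). Psmd3 (91.2 and 69.9 CPM), Psmd12 (40.6 and 32.6) and Psmd11 (74.97 and 64.1) were at -0.38, -0.32 and -0.23. Psmd8 was the least shifted, with 69.6 and 63.8 CPM and a ratio of -0.13 (-0.23 to -0.03).

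The 3 Psmd genes that encode assembly chaperones of the base, and no subunit of the finished protease, had a median of -0.27. Psmd5 had 38.7 CPM in WT and 32.2 in miR-146a-/- (-0.27, -0.41 to -0.13). Psmd9 had 14.5 and 14.4 CPM, a ratio of -0.01 (-0.23 to 0.20). Psmd10, which encodes gankyrin and is on the X chromosome, had 8.86 and 6.40 CPM (-0.47, -0.79 to -0.16).

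Levels of different genes were compared per kilobase (kb) of the principal annotated transcript. In both libraries Psmb2 was the highest, at 78.0 CPM per kb in WT and 84.9 in miR-146a-/-, followed by Psma7 at 70.9 and 54.7 and Psmb6 at 56.6 and 44.8. The 3 assembly chaperones ranged from 5.57 to 8.81 CPM per kb in WT, below all 17 true regulatory subunits, which spanned 15.8 to 46.4. The 14 ubiquitous core genes spanned 14.3 to 78.0. Genes whose products assemble in equal numbers differed by 5.47-fold in WT and 7.56-fold in miR-146a-/- within the core, and by 2.93-fold and 4.16-fold among regulatory subunits. Members that use a shorter transcript than the annotated one, as the long 3' ends of Psma2 and Psma3 allow, would be understated here. Per kb of all annotated exons Psmb2 was also the highest member, at 55.7 and 60.6. The order of members was nearly the same in both libraries (Spearman's rho 0.97 across 35 genes, which share each library's depth and the same lengths and are not independent replicates).

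**Figure D2:**
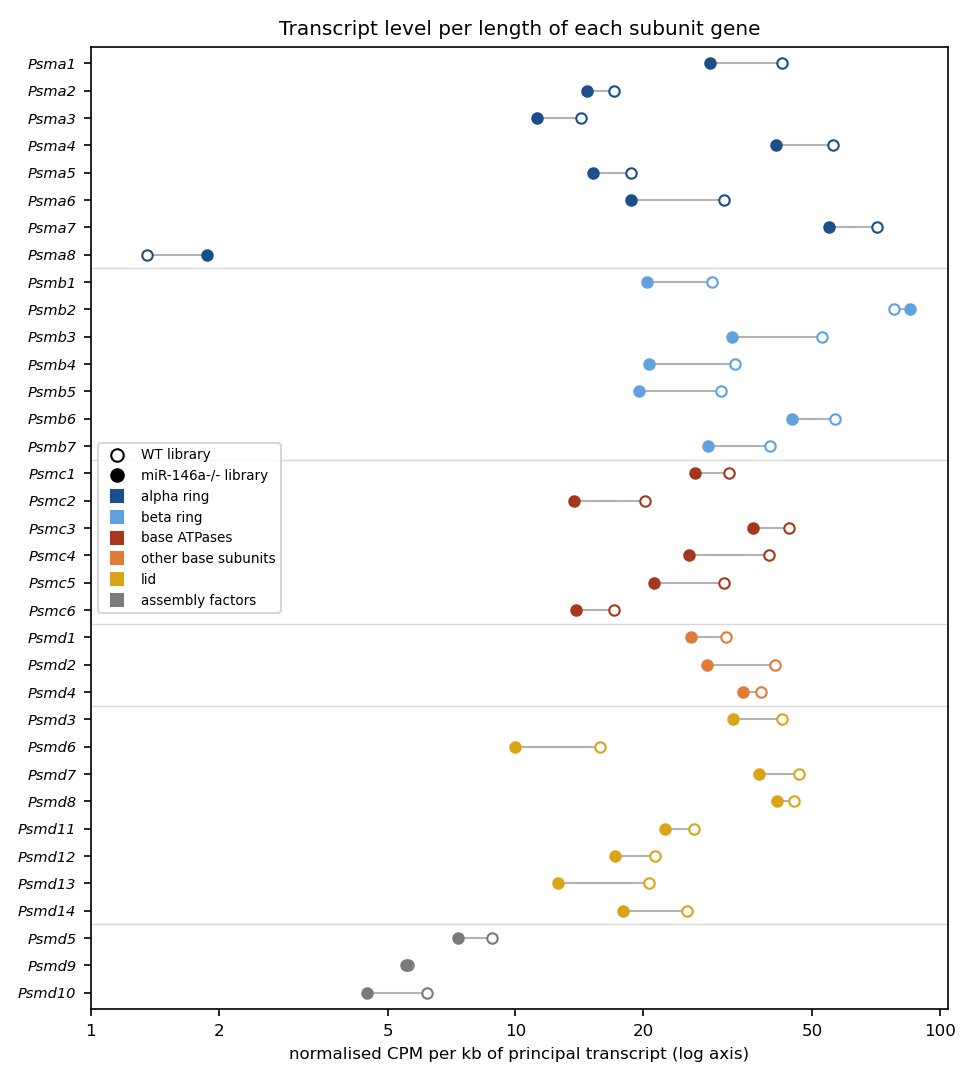
Level of each measured member (y axis) in normalised CPM per kb of principal transcript (x axis, log scale) in the WT library (open) and the miR-146a-/- library (filled), coloured by role. Psmb2 is highest in both, Psma8 lowest in both, and only Psmb2 and Psma8 have the filled point to the right.

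Transcript length moved with these ratios across the whole transcriptome. Among protein-coding genes with 200 counts or more, the shortest decile had a median log2 ratio of -0.25 and the longest decile one of 0.18. Core genes are short, with a median of 1165 bases against 1710.5 for regulatory genes. Protein-coding genes within the interquartile range of core lengths had a median of -0.24, and those within that of regulatory lengths a median of -0.13. Once length and GC content were adjusted for, the core was at -0.32 and the regulatory genes at -0.30, a gap of -0.02, and 32 of 35 members stayed below 0. All measured genes had a median of -0.03 under that adjustment.

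**Figure D3:**
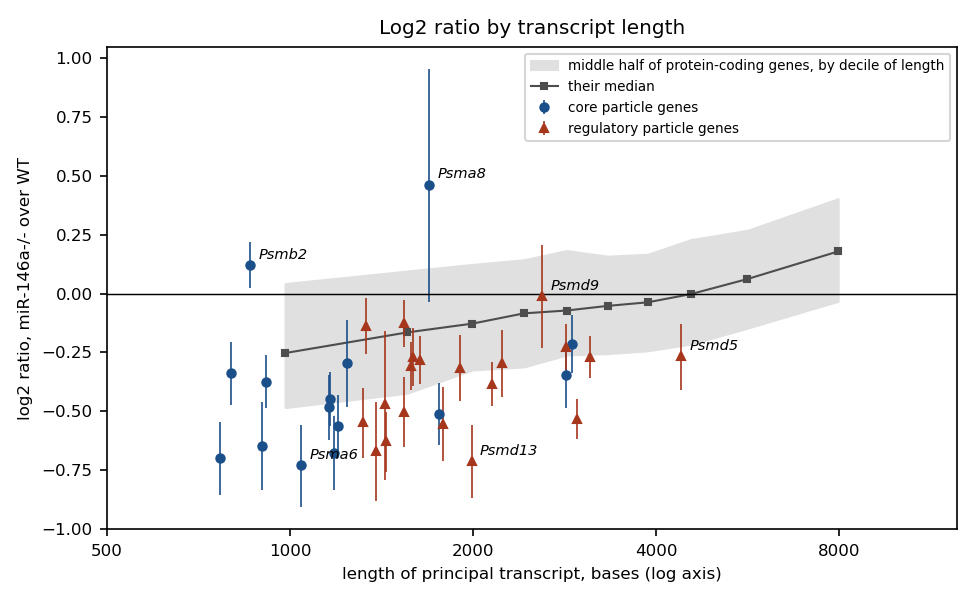
Log2 ratio (miR-146a-/- over WT, y axis) against length of the principal transcript (x axis, log scale) for core genes (circles) and regulatory genes (triangles), bars being 95% counting intervals. The line and band are the median and interquartile range of protein-coding genes with at least 200 counts in each decile of length, drawn at the decile's median length; most members lie below the line at their own length.

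Immunoproteasome genes were compared with the subunits they replace, since the exchange of proteolytic subunits alters the peptides that cells present. Psmb8 replaces Psmb5, Psmb9 replaces Psmb6 and Psmb10 replaces Psmb7. Each ratio was taken within a library and so does not depend on scaling. Psmb8 exceeded Psmb5 by 4.01 counts to 1 in WT (3.77 to 4.27) and by 4.69 to 1 in miR-146a-/- (4.13 to 5.33), or 2.22 and 2.59 to 1 per length. Psmb9 over Psmb6 was 1.13 (1.06 to 1.20) and 1.28 (1.15 to 1.43) by counts, but below 1 per length, at 0.666 and 0.757. Psmb10 over Psmb7 was 0.868 (0.815 to 0.924) and 0.800 (0.705 to 0.909), or 0.768 and 0.708 per length. From WT to miR-146a-/- these count ratios changed 1.17-fold, 1.14-fold and 0.922-fold. The intervals of each pair overlapped between libraries, but overlap does not test the change in a ratio, for which no interval was computed. For the trio as a whole the ratio was 1.69 (1.64 to 1.75) and 1.79 (1.68 to 1.91). By counts, without allowance for length, the 3 immunoproteasome genes thus exceeded the 3 they replace in both libraries. Per length, only Psmb8 exceeded the gene it replaces.

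**Figure D4:**
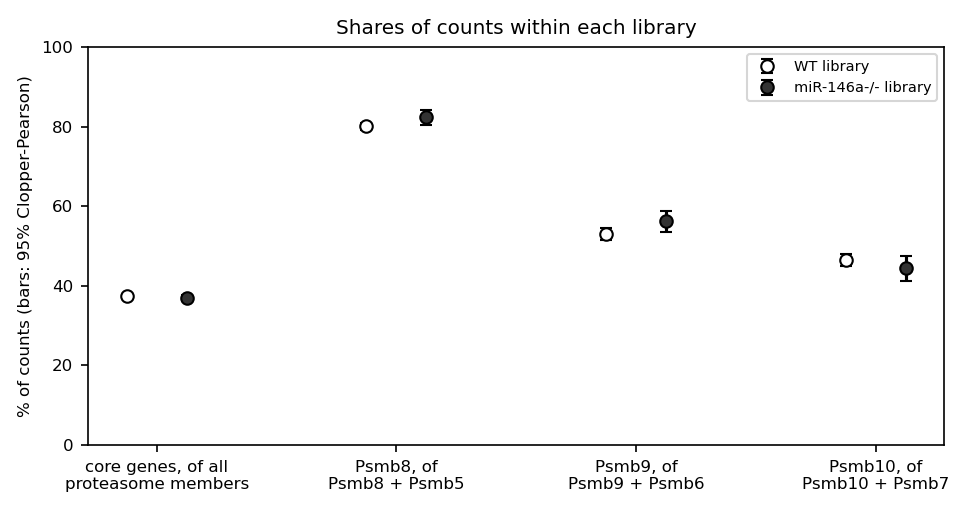
Share of counts (y axis, %) held by core genes among all proteasome members, and by each immunoproteasome gene among the sum of itself and the subunit it replaces, in the WT library (open) and the miR-146a-/- library (filled); bars are 95% Clopper-Pearson intervals. The 2 points of each quantity have overlapping bars, which does not test their difference.

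Other genes of the pathway were examined as lists. Of 47 measured related genes, 2 were called higher, against 5.35% of all measured genes, and 0 lower, against 1.53%. The median of the 47 was -0.19. The subunits Adrm1 and Sem1, which lack a Psm symbol, were at -0.27 and -0.23. All 5 core assembly chaperones had ratios below 0 (4 with whole intervals), and their median was -0.42, from Psmg2 at -0.15 to Psmg3 at -0.89 (238 and 46 counts). Pomp, the maturation factor of the core, was at -0.42. Of the PA28 activator genes, Psme2 was at -0.72 (-0.89 to -0.56) and its partner Psme1 at 0.14 (0.08 to 0.19), and Psme3, Psme4 and the inhibitor Psmf1 were at -0.04, 0.11 and -0.16. Base assembly and proteasome-bound factors had a median of -0.17 over 9 of 10 listed genes (Paaf1 was not matched), from Uchl5 at -0.53 to Zfand2a at 0.51. The segregase Vcp was at -0.46 and the shuttle factor Ubqln2 at 0.45, the lowest and highest of 11 shuttle and p97 genes, whose median was -0.19. The ubiquitin-activating enzymes Uba1 and Uba6 were at -0.18 and -0.17.

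Of the ubiquitin genes described here, Ubb, a polyubiquitin gene that responds to stress, was called higher, with 342 CPM in WT and 535 in miR-146a-/- (0.65, 0.61 to 0.69). Rps27a, which encodes ubiquitin fused to a ribosomal protein, had 187 and 126 CPM (-0.56, -0.63 to -0.49). Ubiquitin genes share near-identical sequence, so these counts are uncertain where reads could be split between them.

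**Figure D5:**
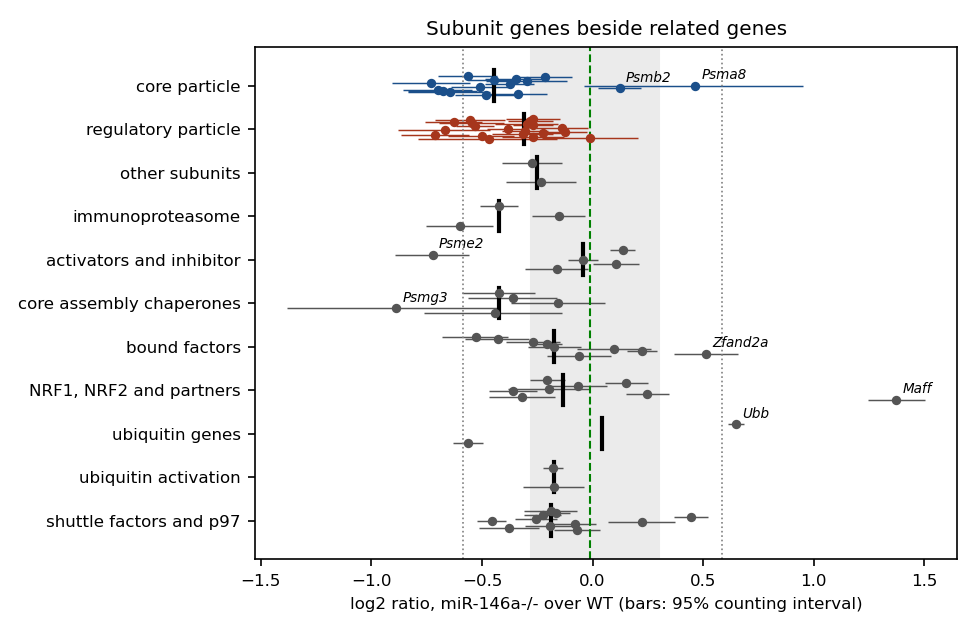
Log2 ratio (x axis) of core and regulatory particle genes beside 9 lists of related genes (y axis); points are genes, bars 95% counting intervals, black ticks list medians, the dashed line and band the median and interquartile range of all measured genes and dotted lines 1.5-fold. Of the genes drawn, Maff and Ubb are those with whole intervals beyond 1.5-fold.

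Subunit genes are known to be induced together by NRF1, encoded by Nfe2l1, when proteasome activity falls short. Nfe2l1 had 115 CPM in WT and 100 in miR-146a-/- (-0.20, -0.28 to -0.13), and Ddi2, the protease that activates it, was at -0.07. The related factor Nfe2l2 was at 0.15. Of their small Maf partners, Maff was called higher, with 1007 and 936 counts and a log2 ratio of 1.37, whose lower bound was 1.24, Mafk was at 0.25 and Mafg at -0.32. The core of the antioxidant response element that these factors bind, TGACNNNGC on either strand, was sought in RefSeq promoters (GRCm38.p6, 250 bases before to 50 after the start), which were found for 28 measured members. It occurred in 5 of the 28 (17.9%), Psmb5, Psmb6, Psmc6, Psmd9 and Psmd12, against 17.2% of 9735 measured protein-coding genes. These percentages count a gene when any of its promoters matched. Of all single promoters in the set, unmeasured genes included, 12.4% matched, which is not a like measure. The median log2 ratio was -0.32 for members with a match and -0.47 for those without. The CCAAT box, CCAAT on either strand, was in 11 of 28 members (39.3%) against 42.9% of measured protein-coding genes, and the E-box CACGTG in 2 (7.14%) against 11.7%. The antioxidant response element matches of Psmb5 (chr14:54618023-54618053, minus strand), Psmc6 (chr14:45329586-45329616, plus strand) and Psmd12 (chr11:107479278-107479300, plus strand) are shown because they lie upstream of both the RefSeq and the GENCODE start; that of Psmb6 adjoins the start and that of Psmd9 lies inside its GENCODE gene. The log2 ratios of the 3 genes shown were -0.65, -0.30 and -0.32, and those of Psmb6 and Psmd9 -0.34 and -0.01. Capitals mark the match, which reads on the other strand in Psmc6 and Psmd12.
Psmb5: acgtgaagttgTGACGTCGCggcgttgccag
Psmc6: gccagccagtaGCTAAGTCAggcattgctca
Psmd12: tctGCTGTGTCAcatttgccccc

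Direct matches to the deleted microRNA were few among the members. Bases 2 to 8 of miR-146a-5p, in capitals in the sequence below, pair with AGTTCTC; the mature sequence lies at chr11:43374435-43374456 on the minus strand (RefSeq, GRCm38.p6). Taking for each gene its longest 3' untranslated region, this occurred in 2 of 35 members (5.71%), against 12.6% of 12257 measured protein-coding genes. The members' regions are short, with a median of 296 bases against 1178. The matches were in Psmd3 (chr11:98695968-98695974, plus strand) and Psmd11 (chr11:80471861-80471867, plus strand), shown with flanking bases and the match in capitals. Psmd3 was at -0.38 (-0.48 to -0.29) and Psmd11 at -0.23 (-0.33 to -0.13), both inside the range of lid genes without a match.
miR-146a-5p: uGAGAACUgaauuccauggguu
Psmd3: aaacaataaaaAGTTCTCcagag
Psmd11: gataggcggccAGTTCTCatgtaatccgt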

How the data were processed

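The authors deposited whole-number read counts per Ensembl gene for both libraries, without normalisation. Per the file headers, splice junctions were placed on the genome and duplicates were flagged; STAR 2.5.3a and Salmon 0.9.0, and the build mm10, appear in the submitters' processing notes with no role. How reads were counted (program, strand, annotation, duplicates) is not given in the sources used here. Names, positions and transcripts came from GENCODE M21 (primary assembly); identifiers without a name held 0.286% of WT and 0.168% of miR-146a-/- counts. Pseudogenes with a -ps subunit symbol held 0 and 1 counts.

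Genes with at least 20 summed counts were scaled by TMM in edgeR 4.0.16 (R 4.3.3), to effective sizes in the ratio -1.48 (log2). Without replicates the quasi-likelihood test could not be run. Log2 ratios used a prior count of 0.5. Intervals were Clopper-Pearson intervals of the share of counts (scipy 1.17.1). They were tried on data simulated with counting error only, so variation between pools of mice was not tested. Length and GC content of the APPRIS principal transcript were adjusted for by a robust cubic fit over measured protein-coding genes. Every member may be named, and in related lists those called and the highest and lowest; others were chosen after their values were seen. Members and lists were chosen with earlier results of these data known. Some genes of the related and marker lists are not reported here, and counts over those lists leave them out. Alternatives covered scaling (DESeq2 1.42.0, upper quartile, totals), filters, thresholds, prior count, mean for median and members left out.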

Additional observations from a re-analysis of the deposited data

How the results depend on the processing

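By total counts, which take in the ribosomal RNA features, the median of all genes moved to -0.83 and 34 members were called lower, with 7077 of 13880 genes; the core and regulatory medians were -1.27 and -1.13, the summed ratios -1.21 and -1.18, and Psmb2 (-0.70) and Psma8 (-0.35) turned negative. By totals of protein-coding genes 9 members were called lower, with 574 of 13880 genes, the medians were -0.61 and -0.47, the summed ratios -0.55 and -0.52, and Psmb2 was at -0.040. Relative to the median of all genes, the members' median was -0.36 by TMM and by each of these totals. A change of scaling shifts all genes almost alike, so that agreement was fixed in advance. The value was -0.34 with at least 200 counts and -0.29 after the length and GC adjustment. With no filter 4 members were called lower, with 322 of 20304 genes: TMM over more genes gave a log2 size ratio of -1.41 in place of -1.48, which lowered every measured member alike. With intervals that only exclude equality, 1 was higher and 32 lower, a looser rule by construction. Psmd9, near 0, turned positive by DESeq2 (0.0014), upper quartile (0.0015), at least 200 counts (0.026) and the length and GC adjustment (0.0049). The core median stayed below the regulatory one in every alternative run. Alternatives of scaling alone shift both medians alike, so they could not move the difference of -0.14. In the others it ranged from -0.15 with at least 200 counts to -0.0076 with means, and was -0.02 after the length and GC adjustment. No paired analysis was possible because each genotype had 1 library.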
